A study of Mus musculus with 282 samples.

Results

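The IkB family is described here by 6 genes, Nfkbia (ENSMUSG00000021025), Nfkbib (ENSMUSG00000030595), Nfkbie (ENSMUSG00000023947), Nfkbiz (ENSMUSG00000035356), Nfkbid (ENSMUSG00000036931) and Bcl3 (ENSMUSG00000053175). They were chosen by name as genes of this family, and all 6 were found among the 55450 gene identifiers of the count tables. The cells were single granulocyte-monocyte progenitors (GMPs), the bone marrow precursors of granulocytes and monocytes. All cells, blank cells included, came from GFP-p65/H2BmCherry mice, homozygous for GFP-p65 and heterozygous for H2BmCherry, so the p65 subunit of NfkB carried GFP and a histone carried mCherry in every group. The mice were male and female and 12 to 19 weeks old, and cells were cultured for 8 h under a confocal microscope before they were picked with a micromanipulator for Smart-Seq2, a method that amplifies polyadenylated RNA from 1 cell. The cell tables deposited by the authors listed 238 of the 282 samples. Of these, 60 were marked blank, read here as no cytokine, and the rest had TNF. The tables also gave each cell a response class for its NfkB signal (oscillatory, transient, non-responsive and smaller classes). The TNF dose and the way in which the classes were assigned are not stated in the labels or tables.

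IkB proteins hold NfkB dimers through ankyrin repeats. TNF, an inflammatory cytokine, activates a kinase that marks the cytoplasmic inhibitors for destruction, NfkB then enters the nucleus, and some of its target genes encode inhibitors that end the signal, a negative feedback that can make nuclear NfkB oscillate. IkB-alpha, the product of Nfkbia, is the best known of these inhibitors, with IkB-beta (Nfkbib) and IkB-epsilon (Nfkbie) beside it. The products of Nfkbiz, Nfkbid and Bcl3 are nuclear members that bind NfkB subunits on DNA and change the transcription of target genes.

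The start regions of the genes are shown because the comparisons concern whether these genes moved together with TNF. RefSeq windows of 300 bases (GRCm38.p6, 250 bases before to 50 after an annotated start, on the gene's strand) were found for 5 of the 6 genes by symbol. Matches to the NfkB consensus motif were sought on either strand as GGGRNWYYCC (R is A or G, N any base, W is A or T, Y is C or T). Each window is printed 5′ to 3′ in lower case, with matches in capitals. The first is Nfkbia (chr12:55492598-55492897, minus strand), with a match at bases 222 to 231 of the window.
Nfkbia: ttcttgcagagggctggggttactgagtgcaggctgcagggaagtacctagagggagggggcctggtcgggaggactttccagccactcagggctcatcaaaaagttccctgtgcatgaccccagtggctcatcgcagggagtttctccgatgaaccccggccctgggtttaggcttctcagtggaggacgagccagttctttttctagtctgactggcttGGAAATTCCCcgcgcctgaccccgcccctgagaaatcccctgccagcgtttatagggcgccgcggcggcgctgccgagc
The Nfkbie window (chr17:45555450-45555749, plus strand) held a match upstream of the start.
Nfkbie: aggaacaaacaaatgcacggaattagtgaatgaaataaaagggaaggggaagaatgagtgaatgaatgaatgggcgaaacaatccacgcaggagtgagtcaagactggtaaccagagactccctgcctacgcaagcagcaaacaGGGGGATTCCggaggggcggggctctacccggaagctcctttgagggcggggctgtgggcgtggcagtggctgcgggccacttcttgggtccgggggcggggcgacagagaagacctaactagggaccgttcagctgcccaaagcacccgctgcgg
The Bcl3 window (chr7:19822706-19823005, minus strand) held a match at bases 253 to 262, after the annotated start.
Bcl3: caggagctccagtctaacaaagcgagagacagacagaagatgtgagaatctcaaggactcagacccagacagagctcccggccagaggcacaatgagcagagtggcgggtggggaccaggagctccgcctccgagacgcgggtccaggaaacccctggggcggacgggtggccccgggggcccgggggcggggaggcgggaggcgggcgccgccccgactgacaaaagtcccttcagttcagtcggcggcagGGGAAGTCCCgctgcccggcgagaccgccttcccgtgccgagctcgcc
Of the 3 Nfkbid windows, the one at chr7:30422156-30422455 (plus strand) held 2 matches, at bases 25 to 34 and 70 to 79.
Nfkbid: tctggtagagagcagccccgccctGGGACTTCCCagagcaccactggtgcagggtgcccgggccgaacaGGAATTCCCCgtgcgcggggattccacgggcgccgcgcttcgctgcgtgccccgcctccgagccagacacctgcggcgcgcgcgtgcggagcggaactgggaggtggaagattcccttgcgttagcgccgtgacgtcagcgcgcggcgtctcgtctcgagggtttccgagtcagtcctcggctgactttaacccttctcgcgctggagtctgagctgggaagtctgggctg
The Nfkbib window (chr7:28766595-28766894, minus strand) had none of these letters.
Nfkbib: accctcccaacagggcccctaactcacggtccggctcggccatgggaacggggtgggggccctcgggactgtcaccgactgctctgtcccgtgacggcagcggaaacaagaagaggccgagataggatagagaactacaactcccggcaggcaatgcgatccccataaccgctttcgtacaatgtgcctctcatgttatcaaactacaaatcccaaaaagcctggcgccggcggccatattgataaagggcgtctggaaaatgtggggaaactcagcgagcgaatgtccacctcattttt
Among all 32851 windows of this table, 4.51% held at least 1 match. A match describes the letters only and is not a measured binding site.

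Reads were summed over the cells of a group in each of 2 experiments, called here the 1-plate experiment (67 listed cells) and the 2-plate experiment (the other listed cells, on plates P1 and P2). The experiment was the replicate (n = 2), since cells of an experiment share their source, and separate animals or cultures are not named in the labels, so the p-values measure a spread that may be technical. Listed cells had 182301 to 3380416 reads and 3672 to 10922 detected genes. On plate P2, 24 of 68 TNF cells had fewer than 8000 detected genes, against 0 to 2 cells in each of the other groups of a plate and a stimulus. Levels are CPM, read counts scaled to an equal total of gene reads. They are not scaled by gene length, so they are compared between groups of cells and not between genes. In the RefSeq gene table Nfkbib overlaps Ccer2 and Bcl3 overlaps Gm16174, and no source names the strand setting of the counting, so reads of these pairs could not be told apart.

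TNF cells had more reads of the cytoplasmic inhibitors Nfkbia and Nfkbie and of nuclear Bcl3 than blank cells in both experiments, and the difference in Nfkbie passed the test. For Nfkbia, the summed level was 380.3 CPM in TNF and 49.5 CPM in blank cells of the 1-plate experiment. In the 2-plate experiment, its level was 607 CPM with TNF and 198 CPM without. Both TNF sums lay above both blank sums. The log2 difference in Nfkbia was 2.28 ± 0.31 (SE, n = 2 experiments, 4.87-fold), with an adjusted p of 0.0712 in edgeR's quasi-likelihood test. Single cells varied widely, with a lowest, median and highest level of Nfkbia of 8.24, 341 and 1786 CPM in the 51 TNF cells and of 0, 37.3 and 147.5 CPM in the 16 blank cells of the 1-plate experiment. The same values were 21.04, 519 and 2666 CPM in the TNF cells and 0, 105.2 and 938 CPM in the 44 blank cells of the 2-plate experiment. In the 1-plate experiment 82.4% of TNF cells (42 of 51) exceeded every blank cell. Only 19 TNF cells (14.96%) did so in the 2-plate experiment, where some blank cells were high. The 2 shares are not on 1 footing, since 44 blank cells set the highest value there, against 16 in the 1-plate experiment.

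Nfkbie had summed levels of 36.4 and 41.2 CPM in TNF cells of the 1-plate and 2-plate experiments, and of 4.997 and 4.79 CPM in blank cells. The experiments thus gave close levels in each stimulus group. Its log2 difference of 3.01 ± 0.28 (SE, 8.05-fold) had an adjusted p of 0.0322 in edgeR. It was the only one of the 6 genes called in this comparison, in which 0.446% of the 15479 tested genes were called in either direction (64 higher and 5 lower with TNF). All 6 genes had an unadjusted p under 0.05, as did 1689 of the 15479 tested genes. All 6 also had a positive difference, and their median log2 difference was 1.57, beside 0.03 over all tested genes.

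Bcl3 was at 18.9 and 25.2 CPM in TNF cells and at 2.63 and 5.62 CPM in blank cells of the 1-plate and 2-plate experiments. Its log2 difference was 2.50 ± 0.36 (SE, 5.67-fold), with an adjusted p of 0.0763 in edgeR. In the blank sum of the 1-plate experiment, 1 cell held 75% of the Bcl3 reads. Nfkbib had summed levels of 105.9 and 149.2 CPM with TNF and of 57.4 and 87.2 CPM without, a log2 difference of 0.85 ± 0.15 (SE, 1.80-fold) with an adjusted p of 0.119 in edgeR. Nfkbib was thus the member with the closest folds in the 2 experiments, 1.85 and 1.71.

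Nfkbiz and Nfkbid had smaller differences. For Nfkbiz, the sums were 43.1 and 98.5 CPM with TNF and 18.7 and 71.4 CPM without, so that the TNF sum of the 1-plate experiment lay below the blank sum of the 2-plate experiment. The log2 difference in Nfkbiz was 0.84 ± 0.22 (SE), with an adjusted p of 0.272 in edgeR. Nfkbid stood at 30.02 and 46.1 CPM with TNF and at 23.1 and 24.5 CPM without. Its log2 difference of 0.67 ± 0.25 (SE) had an adjusted p of 0.436 in edgeR, and a single cell held 13.1% of its TNF reads in the 2-plate experiment.

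The count of called genes moved with the settings, while the direction did not. DESeq2 called 5 of the 6 (all but Nfkbid) and 4.35% of all tested genes. A stricter low-count filter, which tested 8619 genes and called 3.46% of them, called Nfkbia, Nfkbib, Nfkbie and Bcl3. The call of Nfkbie was lost with spike-in factors (adjusted p = 1), without the experiment term (0.193) and without plate P1 (0.108). Spike-in reads came to 0.127% of gene reads in TNF and 0.296% in blank cells of the 1-plate experiment, and to 1.76% and 1.35% in the 2-plate experiment. Spike-in factors moved the median log2 difference of all genes by 0.39, and their part in the result was not tested.

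**Figure D1:**
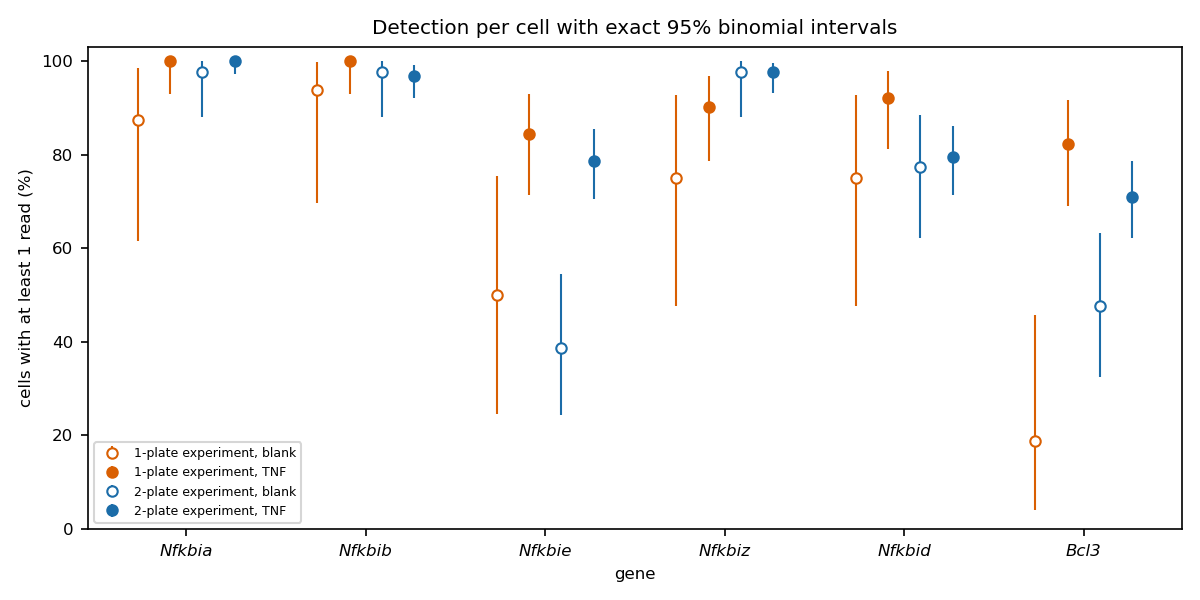
Share of cells with at least 1 read of each gene (vertical axis, percent), by experiment (colour) and stimulus (filled, TNF; open, blank), with exact 95% binomial intervals. The intervals of TNF and blank cells lie apart for Bcl3 in the 1-plate experiment and for Nfkbie in the 2-plate experiment, and overlap at their edges for the same 2 genes in the other experiment.

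Detection per cell, the share of cells with at least 1 read, showed where a level rested on more cells with reads. Nfkbia was read in every TNF cell, and in 14 of 16 and 43 of 44 blank cells of the 1-plate and 2-plate experiments. Nfkbie was read in 84.3% of TNF cells (exact 95% binomial interval 71.4% to 92.98%) and 50% of blank cells (24.7% to 75.3%) in the 1-plate experiment. In the 2-plate experiment, Nfkbie was read in 78.7% of TNF cells (70.6% to 85.5%) and 38.6% of blank cells (24.4% to 54.5%). Bcl3 was read in 82.4% of TNF cells (69.1% to 91.6%) against 18.8% of blank cells (4.05% to 45.6%), and in 70.9% (62.1% to 78.6%) against 47.7% (32.5% to 63.3%), in the same order of experiments. Within the 2-plate experiment, the Bcl3 shares of TNF and blank cells were 88.1% and 41.7% on P1 but 55.9% and 55% on P2. Shares for Nfkbib, Nfkbiz and Nfkbid lay at 75% or above in each of the 4 groups, with overlapping intervals. Intervals cover counting error only, since cells share their experiment and reads without molecular identifiers are not independent molecules. With cells thinned to 458260 reads, Nfkbie was read in 80.4% of TNF and 46.7% of blank cells of the 1-plate experiment and in 82.9% and 33.3% in the 2-plate experiment, so the gap between stimuli was also present at equal depth.

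Next, cells were split by response class, to ask how the inhibitors differed between TNF cells with different NfkB dynamics and blank cells without a response. Oscillatory TNF cells (20 and 36 cells in the 1-plate and 2-plate experiments) were compared with non-responsive blank cells (13 and 34 cells). Nfkbia, Nfkbib, Nfkbie, Nfkbid and Bcl3 were higher in oscillatory TNF cells, and Nfkbiz did not pass the test. In this comparison 2.35% of the 16586 tested genes were called (298 higher, 92 lower), beside 5 of the 6 family genes.

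**Figure D2:**
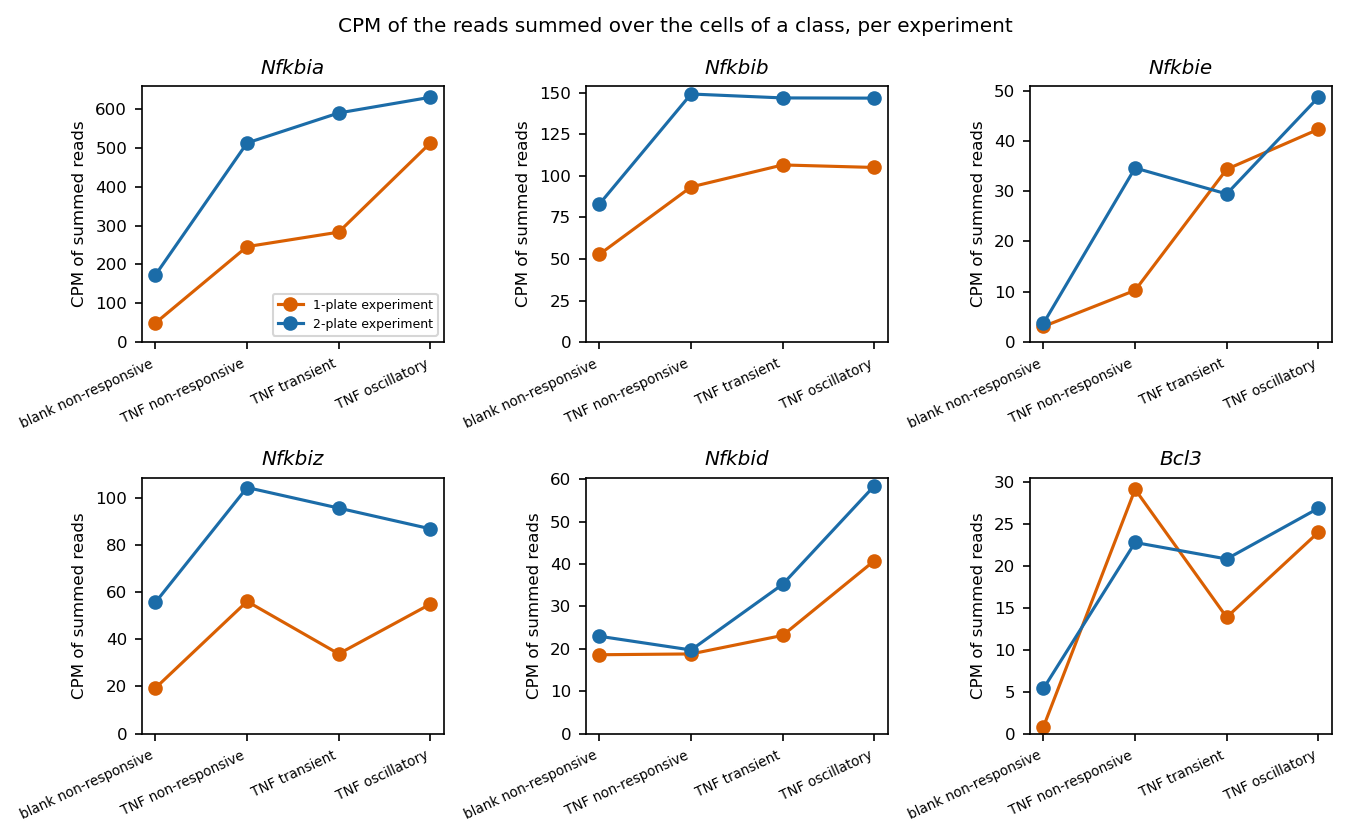
CPM of the reads summed over the cells of a class (vertical axis, linear from 0) for the 4 classes found in both experiments, 1 panel per gene and 1 line per experiment. Nfkbid rises from the transient to the oscillatory class in both experiments, whereas Nfkbib is nearly level over the 3 TNF classes.

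Among the cytoplasmic inhibitors, Nfkbia stood at 512 and 630.2 CPM in oscillatory TNF cells and at 49.4 and 173.05 CPM in non-responsive blank cells. Its log2 difference was 2.68 ± 0.33 (SE, 6.39-fold), with an adjusted p of 0.0179 in edgeR. Every oscillatory cell had reads of Nfkbia, and 19 of 20 (1-plate) and 6 of 36 (2-plate) exceeded every non-responsive blank cell (13 and 34 cells). Nfkbie rose from 3.12 and 3.75 CPM to 42.3 and 48.6 CPM, a log2 difference of 3.78 ± 0.26 (SE, 13.8-fold) with an adjusted p of 0.00458 in edgeR. Its within-experiment folds were 13.6 and 12.98. The median non-responsive blank cell had 0 reads of Nfkbie in either experiment, whereas the median oscillatory cell had 36.04 and 42.8 CPM. Nfkbib rose from 52.8 and 83.05 CPM to 104.999 and 146.7 CPM, a log2 difference of 0.97 ± 0.14 (SE, 1.96-fold) with an adjusted p of 0.0274 in edgeR.

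Among the nuclear members, Bcl3 rose from 0.82 and 5.38 CPM to 23.97 and 26.8 CPM. Its log2 difference of 3.32 ± 0.59 (SE, 10.01-fold) had an adjusted p of 0.0492 in edgeR, just inside the threshold. The 2 experiments gave unequal folds for Bcl3, 29.2 and 4.99, and the lower blank sum rested on 10 reads, 80% of them from 1 cell. Nfkbid rose from 18.6 and 22.97 CPM to 40.8 and 58.4 CPM, a log2 difference of 1.30 ± 0.23 (SE, 2.47-fold) with an adjusted p of 0.0443 in edgeR. Nfkbiz had 54.9 and 86.8 CPM against 19.4 and 55.6 CPM, with a log2 difference of 1.14 ± 0.24 (SE) and an adjusted p of 0.0818 in edgeR. In the 1-plate experiment 1 oscillatory cell held 39.2% of the Nfkbiz reads, and the median cell had 24.2 CPM.

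The call of Nfkbie held under every alternative that gave a test (largest adjusted p = 0.0392, with spike-in factors), and the other 4 calls did not. With the highest cell of each sum left out, Nfkbia, Nfkbib and Nfkbie were called and Nfkbid (adjusted p = 0.0502) and Bcl3 (0.123) were not. Nfkbid (0.0681) was also lost with only cells of at least 8000 detected genes and Bcl3 (0.0566) with sums per plate. These 2 settings called 2.99% and 2.71% of all tested genes, beside 2.35% in the main fit. Without plate P1, Nfkbie alone was called, and without plate P2, Nfkbia and Nfkbie were. Calls over all tested genes were also fewer there, 0.681% without P1 and 1.77% without P2.

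For transient TNF cells (25 and 51 cells) the blank sums were those used above, so the 2 comparisons share their controls. Nfkbie was the 1 family gene called, in a comparison that called 0.133% of the 16586 tested genes (19 higher, 3 lower). It stood at 34.3 and 29.5 CPM in transient cells, a log2 difference of 3.21 ± 0.26 (SE, 9.27-fold) with an adjusted p of 0.0212 in edgeR. Nfkbia had 283 and 589.9 CPM, a log2 difference of 2.10 ± 0.32 (SE) with an adjusted p of 0.114. For Nfkbib, the transient sums were 106.5 and 146.8 CPM and the log2 difference 0.92 ± 0.14 (SE), also with an adjusted p of 0.114 in edgeR. Bcl3 stood at 13.9 and 20.8 CPM, with a log2 difference of 2.64 ± 0.58 (SE) and an adjusted p of 0.284. Nfkbiz (log2 difference 0.79 ± 0.24, SE) and Nfkbid (0.47 ± 0.22, SE) had adjusted p-values of 0.498 and 0.689 in edgeR. The call of Nfkbie was lost with spike-in factors (adjusted p = 0.361), without the experiment term (0.0912) and without plate P1 (0.0849). DESeq2 called Nfkbia, Nfkbib, Nfkbie and Bcl3, and 1.86% of all tested genes.

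**Figure D3:**
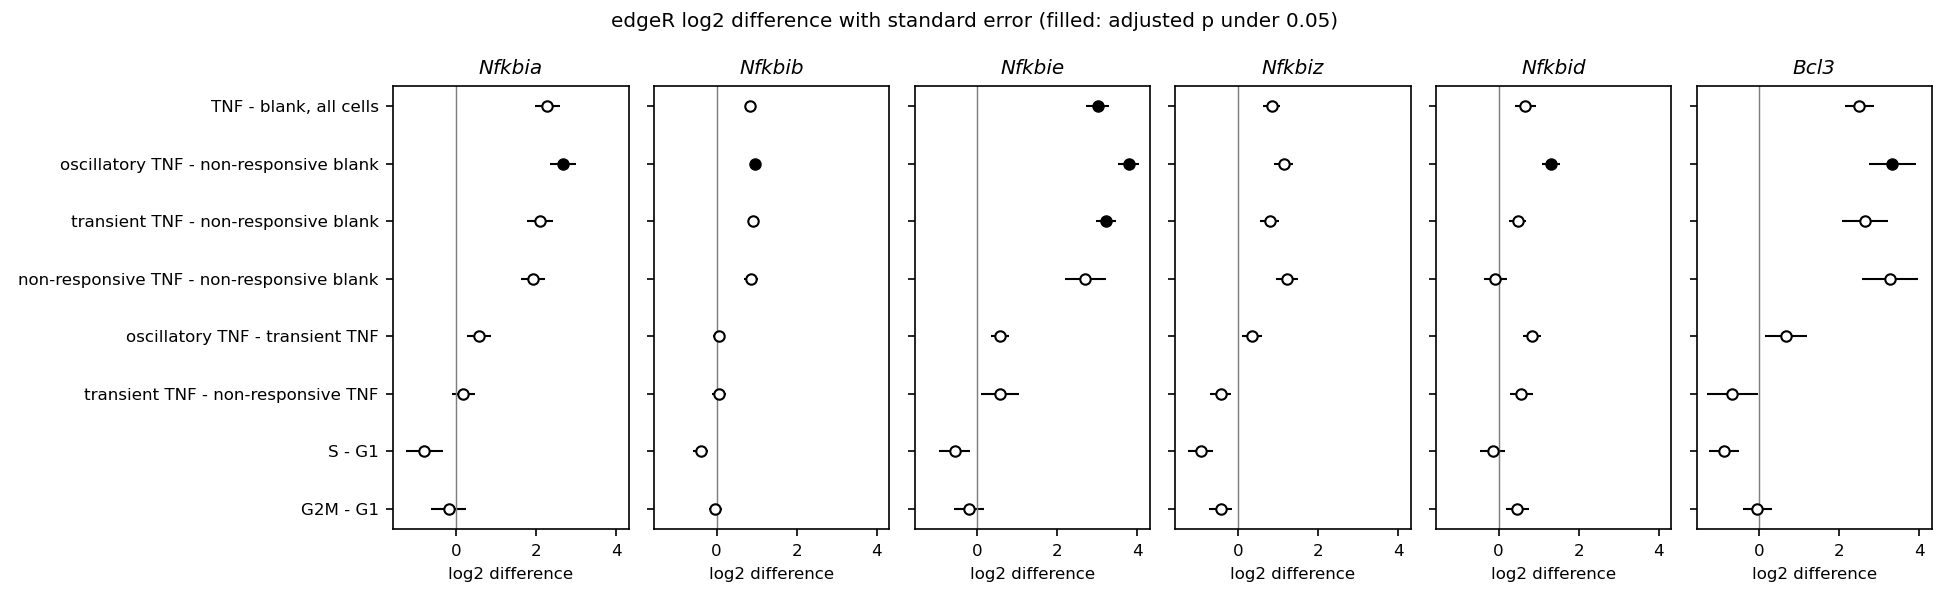
edgeR log2 difference of each gene (horizontal axis) with its standard error for the 8 comparisons (rows). Filled points have an adjusted p under 0.05, and the 5 filled points of the second row are the oscillatory TNF cells against non-responsive blank cells.

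The direct comparison of oscillatory with transient TNF cells called none of the 6 genes in edgeR or DESeq2. Of the 16586 tested genes, edgeR called 0.199% (27 higher, 6 lower in oscillatory cells) and DESeq2 3.83%. All 6 log2 differences were positive. An unadjusted p under 0.05 was reached by 2 of the 6 genes, Nfkbid and Nfkbie, and by 1679 of the 16586 tested genes. Nfkbid had the largest log2 difference. Its oscillatory sums were 40.8 and 58.4 CPM and its transient sums 23.2 and 35.2 CPM (1-plate first), a log2 difference of 0.83 ± 0.22 (SE, adjusted p = 0.246 in edgeR). Its fold was 1.76 and 1.66 in the 2 experiments. On P1 of the 2-plate experiment the oscillatory and transient sums of Nfkbid were 56.6 and 47.1 CPM, with cell medians of 34.99 and 33.8 CPM. On P2 the sums were 61.98 and 22.8 CPM, and 1 cell held 49.8% of the oscillatory reads. Nfkbie had a log2 difference of 0.57 ± 0.23 (SE, adjusted p = 0.478 in edgeR). For Nfkbia the folds were 1.81 and 1.07, a log2 difference of 0.58 ± 0.30 (SE, adjusted p = 0.604 in edgeR). Bcl3 differed by 0.68 ± 0.52, Nfkbiz by 0.35 ± 0.24 and Nfkbib by 0.05 ± 0.14 (log2, SE). A gene called in oscillatory but not in transient cells against blank was therefore not called between these classes when they were compared directly.

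**Figure D4:**
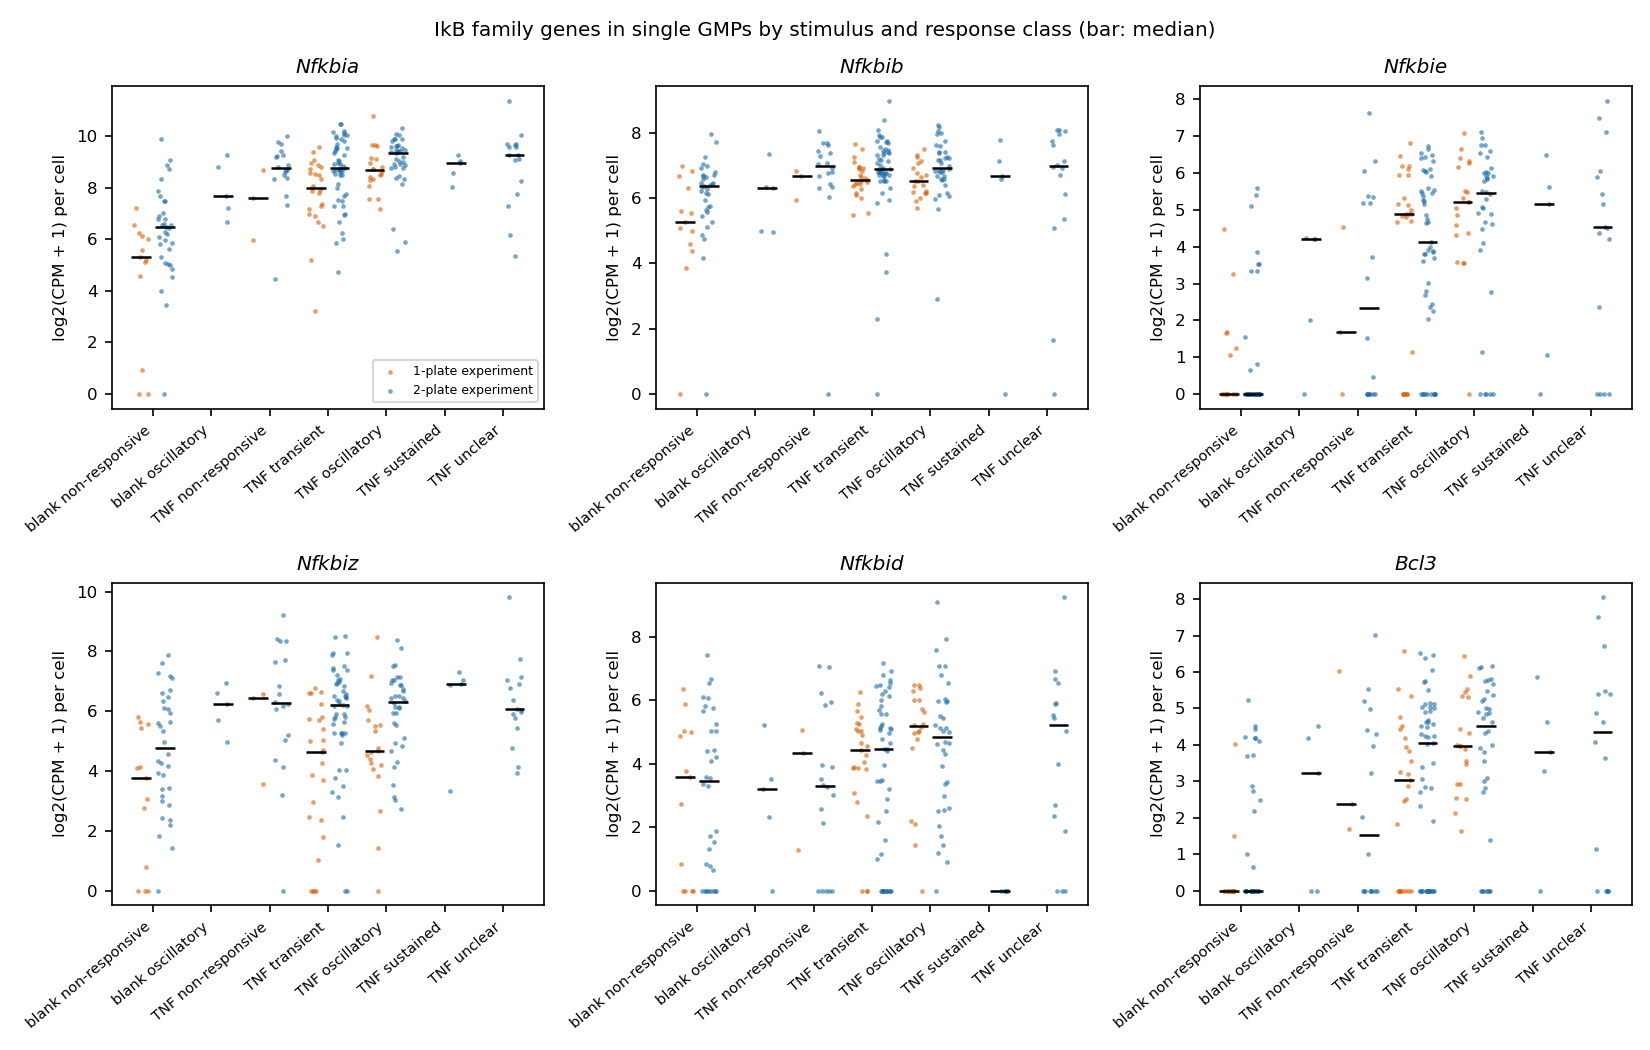
Level of each gene in single cells, log2(CPM + 1), by stimulus and response class, with points for cells, colours for experiments and black bars for medians. For Nfkbie and Bcl3 the medians of non-responsive blank cells lie at 0, and for Nfkbid all 5 sustained TNF cells lie at 0.

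TNF cells classed as non-responsive were few, 3 of the 1-plate experiment and 18 of the 2-plate experiment. They had more reads of Nfkbia than non-responsive blank cells in both experiments, 246 against 49.4 CPM and 513 against 173.05 CPM. The log2 difference in Nfkbia was 1.92 ± 0.30 (SE, 3.78-fold), with an adjusted p of 0.0513 in edgeR, just outside the threshold. None of the 6 genes was called by edgeR, 5 had an unadjusted p under 0.05, and DESeq2 called 5 (all but Nfkbid). Of the 16878 tested genes, 2385 had an unadjusted p under 0.05, and edgeR called 0.492% (67 higher, 16 lower) and DESeq2 5.31%. Nfkbib stood at 93.3 and 149.2 CPM (log2 difference 0.86 ± 0.17, SE, adjusted p = 0.0938 in edgeR), and Nfkbiz at 56.05 and 104.3 CPM (1.23 ± 0.26, SE, adjusted p = 0.119 in edgeR). Nfkbie was at 10.3 and 34.6 CPM (2.70 ± 0.51, SE, adjusted p = 0.0862 in edgeR) and Bcl3 at 29.1 and 22.8 CPM (3.28 ± 0.70, SE, adjusted p = 0.119 in edgeR). These last sums rested on few cells: in the 1-plate experiment, 1 of the 3 cells held 93.1% of the Nfkbie reads and 93.9% of the Bcl3 reads. In the 2-plate experiment 1 cell held 42.8% and 42.4% of them, and the median non-responsive TNF cell had 4.88 CPM of Nfkbie and 2.05 CPM of Bcl3. The plates of that experiment went opposite ways for Bcl3. On P1, 7 non-responsive TNF cells had 40.1 CPM and non-responsive blank cells 7.21 CPM, whereas on P2 the other 11 had 2.89 CPM (36 reads) and the blank cells 3.66 CPM. Nfkbid stood at 18.8 and 19.7 CPM, close to the blank cells (18.6 and 22.97 CPM), with a log2 difference of -0.09 ± 0.29 (SE, adjusted p = 0.933 in edgeR).

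Nfkbia was spread more evenly over these cells than Nfkbie or Bcl3. Its highest cell held 17.1% of its reads in the 18 non-responsive TNF cells of the 2-plate experiment. The lowest, median and highest levels of Nfkbia in these 18 cells were 21.04, 434 and 1031 CPM, and 17 of 18 lay above the median non-responsive blank cell of 87.8 CPM. All 3 such cells of the 1-plate experiment, at 61.2, 196 and 413 CPM, lay above the blank median of 39.1 CPM. Transient against non-responsive TNF cells differed in none of the 6 genes by edgeR or DESeq2. None of the 6 had an unadjusted p under 0.05, beside 1638 of the 16878 tested genes. Of these tested genes, edgeR called 0.00592% (1 gene) and DESeq2 1.85%. The log2 differences ranged from -0.67 ± 0.63 for Bcl3 to 0.57 ± 0.48 for Nfkbie (SE).

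Classes found in a single experiment are given as levels only. The 5 sustained TNF cells of the 2-plate experiment had 262, 379, 502, 531 and 618 CPM of Nfkbia, all above the median blank cell of that experiment. Nfkbid had no read in any of the 5 sustained cells, which allows a share of cells with a read of up to 52.2% by the exact 95% binomial interval. In the non-responsive, transient, unclear and oscillatory TNF cells of the same experiment, 72.2%, 76.5%, 81.2% and 97.2% had a read of Nfkbid. The 5 blank cells classed as oscillatory had 101.99, 147.8, 202, 451 and 616 CPM of Nfkbia, all above the median non-responsive blank cell (87.8 CPM) and below its highest cell (938 CPM). Of these 5 cells 4 had reads of Nfkbie, at 3.01, 17.4, 17.6 and 17.8 CPM, whereas 32.4% of the 34 non-responsive blank cells did. The 16 unclear TNF cells had a lowest, median and highest level of Nfkbia of 39.9, 613 and 2666 CPM. Their sums lay above the 2-plate oscillatory TNF sums for all 6 genes. They were 776 against 630.2 CPM for Nfkbia, 69.6 against 48.6 CPM for Nfkbie, 97.9 against 58.4 CPM for Nfkbid and 44.1 against 26.8 CPM for Bcl3. In the unclear sums 1 cell held 57.6% of the Nfkbid reads. The median unclear cell lay below the median oscillatory cell for Nfkbia, Nfkbie, Nfkbiz and Bcl3, and above it for Nfkbib and Nfkbid.

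Next, only the 4 classes found in both experiments are ordered. The unclear TNF cells, found in the 2-plate experiment only, had higher sums than its oscillatory cells, as given above. In order of summed level, Nfkbia was lowest in non-responsive blank cells, followed by non-responsive, transient and oscillatory TNF cells in both experiments. Within the 2-plate experiment this order was seen on P1 (81.6, 377, 432 and 591.6 CPM) but not on P2, where transient cells (755 CPM) lay above oscillatory (703 CPM) and non-responsive TNF cells (668 CPM). The ranges over the experiments did not overlap between non-responsive blank (49.4 to 173.05 CPM) and non-responsive TNF cells (246 to 513 CPM), and overlapped between each pair of neighbouring TNF classes. Nfkbib had its lowest sums in non-responsive blank cells (52.8 to 83.05 CPM), apart from these 3 TNF classes (93.3 to 149.2 CPM), and the TNF classes overlapped. Nfkbie was at 3.12 to 3.75 CPM in non-responsive blank cells, 10.3 to 34.6 CPM in non-responsive TNF, 29.5 to 34.3 CPM in transient and 42.3 to 48.6 CPM in oscillatory cells, where the oscillatory range lay apart from the other 3. By plate, the oscillatory sums of Nfkbie (54.7 CPM on P1, 37.1 CPM on P2) were above the non-responsive TNF sums of the same plate (44.8 and 22.9 CPM), but not apart from those of the other plate. Nfkbiz kept no such order, and its 1-plate levels lay below its 2-plate levels in each of these 4 classes. For Nfkbid the oscillatory range (40.8 to 58.4 CPM) lay above the transient range (23.2 to 35.2 CPM), which began near the end of the non-responsive blank range (18.6 to 22.97 CPM). By plate, the transient sum of Nfkbid on P1 (47.1 CPM) lay within that oscillatory range. On P2, Nfkbid was at 22.8 CPM in transient and 23.1 CPM in non-responsive blank cells, and 1 cell held 49.8% of its oscillatory reads. Bcl3 was at 0.82 to 5.38 CPM in non-responsive blank cells, and its non-responsive TNF range (22.8 to 29.1 CPM) overlapped the oscillatory range (23.97 to 26.8 CPM). That non-responsive TNF range came mostly from reads of P1 and of 1 cell of the 1-plate experiment, and on P2 the order against blank cells was reversed, as given above.

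By cell cycle phase, as the cell tables give it, none of the 6 genes was called in S against G1 or in G2M against G1 cells by edgeR, with stimulus and experiment as terms. In S against G1, 2.86% of the 14037 tested genes were called (402 genes, 237 of them higher), and all 6 family genes had negative differences. Among all tested genes 2414 had an unadjusted p under 0.05, and 2 of them were family genes. These were Nfkbiz, with a log2 difference of -0.93 ± 0.31 (SE, adjusted p = 0.163 in edgeR), and Bcl3, with -0.88 ± 0.38 (SE, adjusted p = 0.275 in edgeR). DESeq2 called Nfkbiz and 9.12% of all tested genes in this comparison. The blank S side was a single sum of 5 cells (2-plate). The 1-plate blank S and G1 groups held 3 cells each and did not enter the fit. In 2-plate blank cells, Nfkbia stood at 55.97 CPM in S and 299 CPM in G1, and Nfkbiz at 33.2 and 94.6 CPM. Bcl3 had 2.03 CPM (9 reads) and 8.05 CPM. In TNF cells, in the same gene order, S and G1 were 275 and 257, 29.9 and 79.1, and 11.4 and 14.6 CPM (1-plate). The 2-plate TNF values were 561 and 543, 85.5 and 78.4, and 19.3 and 28.8 CPM. In G2M against G1, 1.72% of the tested genes were called (210 higher, 32 lower). The family ranged from -0.44 ± 0.28 for Nfkbiz to 0.47 ± 0.29 for Nfkbid (log2, SE). None of the family had an unadjusted p under 0.05, beside 1802 of the tested genes. DESeq2 called none of the family and 5.20% of all tested genes.

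**Figure D5:**
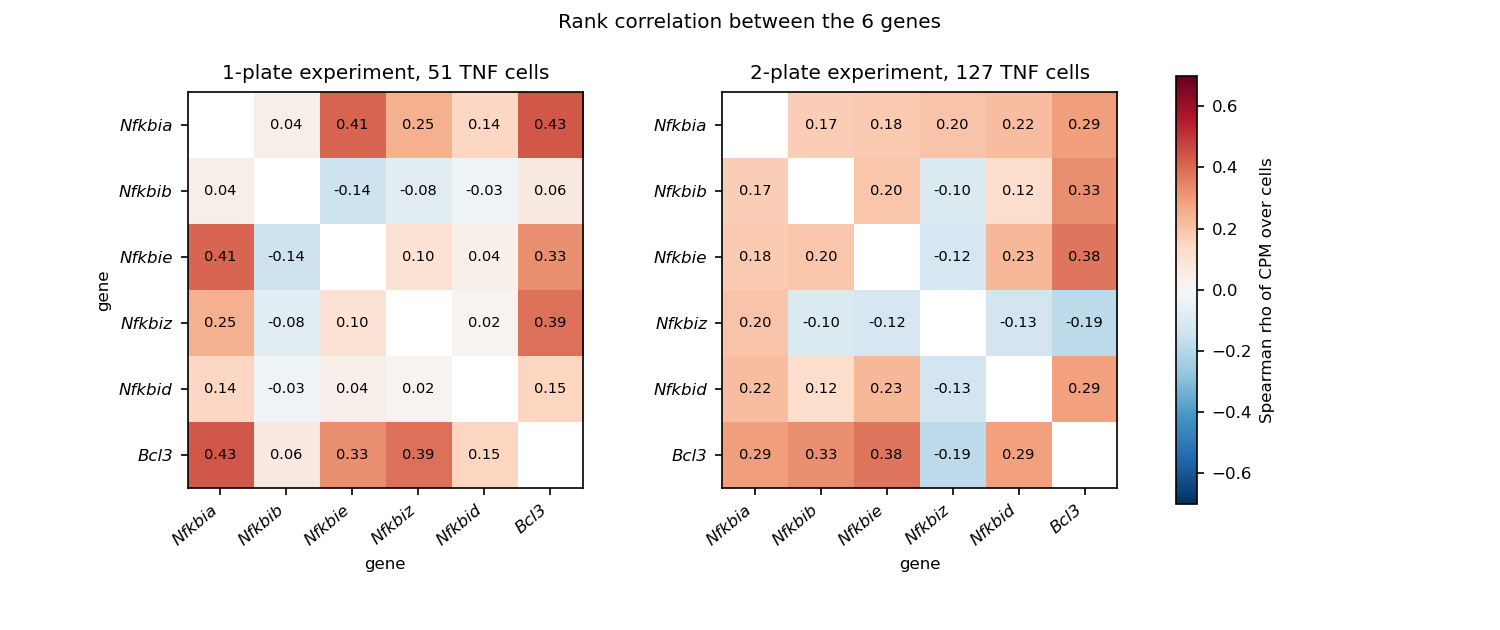
Spearman rank correlation of CPM between the 6 genes over TNF cells (colour and printed value), 1 panel per experiment. Nfkbia with Bcl3 and Nfkbie with Bcl3 are at 0.29 or above in both panels.

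Across TNF cells, the 6 genes were only loosely ranked alike. Spearman's rho of CPM between Nfkbie and Bcl3 was 0.33 over the 51 TNF cells of the 1-plate experiment and 0.38 over those of the 2-plate experiment. Nfkbia and Bcl3 had 0.43 and 0.29, and Nfkbia and Nfkbie 0.41 and 0.18. Nfkbiz and Bcl3 had 0.39 and -0.19. With only those TNF cells of the 2-plate experiment that had at least 8000 detected genes, the second value was -0.03, and Nfkbia had 0.20 with Bcl3 and 0.37 with Nfkbiz, beside 0.29 and 0.20 over all of its TNF cells. Nfkbib had values between -0.14 and 0.33 with the other 5. Cells of an experiment share plates and depth differences, and correlations of this size in sparse counts are given as a description only. Among 8792 other genes with reads in at least 50% of TNF cells of both experiments, ranked by the lower of the 2 rho values, no family member was among the 5 genes most like another. The gene ranked first for Nfkbia and also for Nfkbie was ENSMUSG00000037405, with rho of 0.62 and 0.53 for Nfkbia and of 0.53 and 0.46 for Nfkbie. ENSMUSG00000021948 was among the first 5 for Nfkbia, Nfkbie, Nfkbid and Bcl3, with rho of 0.56 and 0.54 for Bcl3. The files do not pair these identifiers with names.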

How the data were processed

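Reads of single cells were analysed from the count tables that the authors deposited. These hold whole-number read counts per Ensembl mouse gene, and featureCounts, Subread 1.5.0 and SAMtools stand in the submitters' processing notes. Genome build, annotation and strand setting: not given in the sources used here. Stimulus, response class and phase came from the authors' deposited cell tables. Columns that match no sample (357) and the 44 samples that no cell table lists were not compared, and the 92 spike-in features stayed out of library sizes.

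Counts were summed per experiment and stimulus, and per experiment, stimulus and response class (at least 5 cells). In the fit for non-responsive TNF cells, sums of at least 3 cells of any class entered. Sums per experiment, stimulus and phase also needed at least 5 cells. The sums were tested with edgeR 4.0.16 (R 4.3.3) by the quasi-likelihood test, two-sided, with TMM factors, edgeR's default filter on low counts, a term for the experiment and Benjamini-Hochberg adjustment over all genes tested, at 0.05. The experiment pairs the sums because each has its own flow cell and cell table in the labels. Residual degrees of freedom were 1 for stimulus, 2 and 3 for classes and 5 for phases, with the spread drawn partly from other genes. Standard errors are the absolute log2 difference divided by the root of F. DESeq2 1.42.0, RLE and spike-in factors, no and a stricter filter (10 CPM in 50% of sums), no experiment term, sums per plate, thinned cells (458260 reads, 214 cells, 24 too shallow), cells with at least 8000 genes, sums without the highest cell, and leaving out plates or experiments were the alternatives. Likeness was Spearman's rho of CPM over TNF cells, naming the 5 genes with the highest lower rho as the rule.

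The members and lists were chosen with earlier results of these data known. The 55450 identifiers matched 0 entries of the reference gene table, so other pathway genes and cell type markers, set by symbol, were not analysed here, and the GMP label was not checked against markers.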

Additional observations from a re-analysis of the deposited data

Results flagged for a closer look

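In 2 of 11 sets of 5 cells (a gene in a class), 1 cell stood just far enough from the other 4 to be named here (a gap of 0.725 and 0.712 of the range, against a limit of 0.71). Chance gives this in about 1 in 20 sets of normally distributed values. The CPM of single cells are skewed and often 0, so that rate need not hold here. The lowest of the 5 sustained TNF cells had 9.03 CPM of Nfkbiz, where the others had 117.5 to 158.5 CPM. The highest of the 5 blank cells classed as oscillatory had 36.6 CPM of Nfkbid, where the others had 0 to 10.6 CPM.

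Some log2 differences had opposite signs in the 1-plate and 2-plate experiments, and the difference between the experiments was not tested. For oscillatory against transient TNF cells, Nfkbiz had 0.77 and -0.10. For transient against non-responsive TNF cells, Nfkbib had 0.18 and -0.0528, and Nfkbie 1.73 and -0.26. For S against G1 cells, Nfkbia had 0.0154 and -1.09, and Nfkbid 0.0574 and -0.29. For G2M against G1 cells, Nfkbia had 0.80 and -0.38, Nfkbie 0.27 and -0.79, and Bcl3 0.61 and -0.47. The 1-plate phase values rest on TNF cells, whereas the 2-plate values combine TNF and blank cells. In TNF cells alone, Nfkbia sums in G1, S and G2M were 257, 275 and 457 CPM (1-plate) and 543, 561 and 651 CPM (2-plate). Nfkbia thus went the same way in TNF cells of both experiments. Its 2-plate blank sums were lower in S (55.97 CPM) and G2M than in G1 (299 CPM). For Nfkbid (S), Nfkbie and Bcl3 (G2M), the TNF sums also went opposite ways.

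The 44 wells outside the cell tables, whose stimulus is not given, also held reads of these genes. The cell tables are labelled as cells that passed quality control, and these wells are not in them. Nfkbia had a read in 18 of 29 such wells of the 1-plate experiment and 10 of 15 of the 2-plate experiment. Summed over 29 wells of the 1-plate experiment, Nfkbia stood at 366 CPM, Nfkbib at 85.01 CPM, Nfkbie at 25.004 CPM, Nfkbiz at 24.2 CPM and Bcl3 at 11.5 CPM, each above the listed blank cells of that experiment (49.5, 57.4, 4.997, 18.7 and 2.63 CPM). In 15 wells of the 2-plate experiment, Nfkbie at 5.98 CPM, from 1 well with reads, and Nfkbiz at 108.3 CPM were above the listed blank cells (4.79 and 71.4 CPM). The other 5 values were below blank, Nfkbid in the 1-plate wells (15.98 against 23.1 CPM) and, in the 2-plate wells, Nfkbia (78.03 against 198 CPM), Nfkbib (53.1 against 87.2 CPM), Nfkbid (11.95 against 24.5 CPM) and Bcl3 (4.22 against 5.62 CPM).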

How the results depend on the processing

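All 6 genes were higher with TNF than in blank cells under each of the 15 settings, single experiments included, and so were they in oscillatory and in transient TNF cells against non-responsive blank cells. The number of the 6 genes called was less stable. Shares of all tested genes called are in brackets, and were not counted with the highest cell left out. For TNF against blank (1 called, 0.446%) it was 5 with DESeq2 (4.35%). It was 4 without a low-count filter (1.4%), with the stricter filter (3.46%) and with sums per plate (0.739%). It was 2 with thinned cells (0.838%) and with the highest cell left out, and 0 with spike-in factors (0.0194%). The fit with no replicate block, which drops the pairing by experiment, called 0 (0%). Leaving out a plate gave 0 without P1 (0.0068%) and 3 without P2 (1.24%). For oscillatory TNF against non-responsive blank (5 called, 2.35%) it was 3 with the highest cell left out. It was 1 with spike-in factors (0.681%), 1 with no replicate block (0.205%), 1 without P1 (0.681%) and 2 without P2 (1.77%). For transient TNF against non-responsive blank (1 called, 0.133%) it was 4 with DESeq2 (1.86%). It was 3 with the stricter filter (1.24%) and with thinned cells (0.582%), and 2 without a filter (0.325%) and with sums per plate (0.29%). It was 0 with spike-in factors (0.133%), 0 with no replicate block (0.00603%), 0 without P1 (0.0486%) and 2 without P2 (0.162%). For non-responsive TNF against non-responsive blank (0 called, 0.492%) it was 5 with DESeq2 (5.31%). It was 3 without a filter (0.808%), with the stricter filter (2.45%) and with sums per plate (0.98%). It was 2 with thinned cells (0.967%), 1 with RLE factors (0.652%), 0 without P1 (0.291%) and 1 without P2 (0.431%). In S against G1 cells DESeq2 called 1 (9.12%). Genes tested and called also moved: 69 of 15479 were called for TNF against blank, 298 of 8619 with the stricter filter and 673 of 15479 with DESeq2. For oscillatory TNF cells 390 of 16586 were called, and 732 of 8361 with the stricter filter. The cause was not tested, except that the stricter filter tests fewer genes. With 1 experiment left there is no test of stimulus or class. Few reads limit Bcl3 and Nfkbie in blank cells.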

Other observations

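The number of family genes with at least 1 read in the same cell differed between stimuli. All 6 were read in 32 of 51 TNF cells (62.7%) and 0 of 16 blank cells of the 1-plate experiment. In the 2-plate experiment all 6 were read in 67 TNF cells (52.8%) and in 9 of 44 blank cells (20.5%). The median blank cell had reads of 4 and 5 of the genes in the 1-plate and 2-plate experiments, and the median TNF cell of 6 in both. Within TNF cells, all 6 were read in 17 of 20 oscillatory and 11 of 25 transient cells (1-plate) and in 27 of 36 and 24 of 51 (2-plate). These shares follow each gene's own detection and were not tested.

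On plates P1 and P2 of the 2-plate experiment, Nfkbia stood at 481 and 760.4 CPM in TNF cells and at 110.3 and 285 CPM in blank cells, so the level was higher on P2 under both stimuli. Bcl3 was read in 88.1% of TNF cells on P1 and 55.9% on P2, the plate with more cells of few detected genes. In blank cells its shares were 41.7% on P1 and 55% on P2, so that on P2 TNF and blank cells had nearly equal shares. Nfkbid was read in 91.5% and 69.1% of TNF cells and in 79.2% and 75% of blank cells on P1 and P2.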
